A study of Mus musculus with 6 samples.

Results

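The enzymes described here attach a water-soluble group to drugs, hormones, bile pigments and reactive lipids in the liver. They were taken as the protein-coding genes whose symbol begins with one of the glutathione S-transferase class names (Gsta, Gstk, Gstm, Gsto, Gstp, Gstt or Gstz with a number, and Mgst), with Ugt1, Ugt2 or Ugt3, or with Sult and a number. This rule found 66 genes of the 45777 listed, in 13 families. Liver RNA was sequenced from 3 LT mice, which are Fpn fl/fl littermates without Cre, and from 3 Fpn-LKO mice, which carry Alb-Cre on the same Fpn fl/fl background. All 6 were male C57BL/6 mice on a high-fat diet (HFD, 60% of kcal from fat, begun at 8 weeks of age), and all carried the same batch in the labels. Cre under the albumin promoter is used to reach hepatocytes, whereas the libraries were made from whole liver, and the floxed allele is present in both groups. Each library came from 1 mouse, named below by genotype and replicate number.

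Glutathione S-transferases (GSTs) join glutathione to electrophiles, and fall into the cytosolic alpha, mu, pi, theta, omega and zeta classes, a mitochondrial and peroxisomal kappa enzyme, and membrane-bound microsomal enzymes (MGSTs). UDP-glucuronosyltransferases (UGTs) of the endoplasmic reticulum transfer glucuronate from UDP-glucuronate to bilirubin, steroids and drugs, and cytosolic sulfotransferases (SULTs) transfer sulfate from the donor PAPS. Many of these genes are known to respond to NRF2, the aryl hydrocarbon receptor, CAR and PXR, and several differ in level between male and female mouse liver. The comparison of the genotypes asks whether this layer of hepatic detoxification differed between HFD-fed Fpn-LKO and LT livers.

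No transferase differed between the genotypes past the adjusted threshold. The transcripts of most abundant members, such as Mgst1, Gstz1 and Ugt2b5, lay within a narrow range over all 6 libraries. The smallest unadjusted p-values belonged to Sult1d1 and Gstm2, with higher values in the libraries labelled Fpn-LKO, and to the pi class gene Gstp3, with lower values. The widest spreads between mice were found in the pi class, in Ugt1a9 and in low-level members such as Sult5a1 and Ugt1a7c.

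Promoter sequences are shown for 6 members on which the description below turns. They were read from the RefSeq table of GRCm38.p6 and cover the 250 bases before the annotated start, written 5′ to 3′ on the strand of the gene. Gstp1 and Gstp2 are shown because their counts moved together over the libraries, and because their promoters are alike. The capitals in both mark a long form of the antioxidant response element, through which NRF2 acts (TGA and GCA with any 4 bases between them, searched on both strands). The Gstp1 stretch is at chr19:4037913-4038162 and the Gstp2 stretch at chr19:4042222-4042471, both on the minus strand.
Gstp1: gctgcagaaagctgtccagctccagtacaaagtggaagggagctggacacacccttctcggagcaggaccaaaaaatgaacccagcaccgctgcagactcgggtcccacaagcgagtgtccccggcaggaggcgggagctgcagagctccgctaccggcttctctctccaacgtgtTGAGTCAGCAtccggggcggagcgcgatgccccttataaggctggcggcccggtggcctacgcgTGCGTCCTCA
Gstp2: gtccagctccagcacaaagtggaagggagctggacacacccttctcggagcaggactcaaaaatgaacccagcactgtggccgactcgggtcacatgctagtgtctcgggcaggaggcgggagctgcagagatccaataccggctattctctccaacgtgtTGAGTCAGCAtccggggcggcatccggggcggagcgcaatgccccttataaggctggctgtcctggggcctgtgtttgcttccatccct
Both held the match TGAGTCAGCA, which began 74 bases before the start of Gstp1 and 89 bases before that of Gstp2. Gstp1 held another match, on the opposite strand, that began 10 bases before its start. The promoters of Gstp1 and Gstp2 were identical at 78.1% of aligned positions, and each was identical to that of Gstp3 at 47.7% and 45.8%. No match was found within the 250 bases before the Gstp3 start, and 1 that began 7 bases before the start ran across it. The Gstp3 stretch is not printed, because longer RefSeq transcripts of that gene begin inside it.

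Sult1d1 and Gstm2 are shown as the members whose libraries labelled Fpn-LKO all lay above the LT libraries. The Sult1d1 stretch is at chr5:87569007-87569256 and the Gstm2 stretch at chr3:107986421-107986670, both on the minus strand. The capitals mark GTTAAT, a core of the sites bound by the hepatocyte factor HNF1.
Sult1d1: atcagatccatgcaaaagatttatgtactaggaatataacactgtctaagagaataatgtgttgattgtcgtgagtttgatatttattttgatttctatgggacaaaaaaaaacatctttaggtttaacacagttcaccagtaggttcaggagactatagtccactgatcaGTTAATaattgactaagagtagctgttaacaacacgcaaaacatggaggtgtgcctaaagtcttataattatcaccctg
Gstm2: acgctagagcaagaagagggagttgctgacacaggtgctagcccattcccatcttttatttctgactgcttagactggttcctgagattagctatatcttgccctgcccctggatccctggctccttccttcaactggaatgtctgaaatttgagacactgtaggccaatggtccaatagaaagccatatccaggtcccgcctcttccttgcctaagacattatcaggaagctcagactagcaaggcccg
Sult1d1 held 1 match to GTTAAT, which began 79 bases before its start. The 250 bases before Gstm2 held no match to that element, to GTTAAT or to AGGTCA, a core that binds nuclear receptors such as CAR and PXR.

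Ugt1a9 and Ugt1a1 are shown because each has a first exon of its own in front of exons that all 8 Ugt1a members share. Their stretches are at chr1:88070529-88070778 and chr1:88211709-88211958, both on the plus strand, and the capitals again mark GTTAAT.
Ugt1a9: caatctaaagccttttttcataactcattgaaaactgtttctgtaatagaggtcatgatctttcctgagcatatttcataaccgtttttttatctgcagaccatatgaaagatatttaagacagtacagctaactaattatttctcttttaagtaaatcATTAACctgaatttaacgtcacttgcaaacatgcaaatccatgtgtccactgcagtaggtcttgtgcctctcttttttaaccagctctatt
Ugt1a1: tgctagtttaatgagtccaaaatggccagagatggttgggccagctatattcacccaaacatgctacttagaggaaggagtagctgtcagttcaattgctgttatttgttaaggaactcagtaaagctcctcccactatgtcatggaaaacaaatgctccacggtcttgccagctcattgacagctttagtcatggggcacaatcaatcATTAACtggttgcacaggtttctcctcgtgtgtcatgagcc
Each held 1 match on the opposite strand, which began 91 bases before the start of Ugt1a9 and 41 bases before that of Ugt1a1. Motifs not marked were present too: AGGTCA began 201 bases before the start of Ugt1a9. The long antioxidant element began 83 bases before that of Ugt1a1, on the opposite strand. Among the 70 windows of 58 member genes in the RefSeq table (250 bases before to 50 after a start), GTTAAT was found in 14 (20.0%), against 7.10% of all 32851 windows. The long antioxidant element was found in 17 (24.3%) against 13.0%, and its shorter form TGACNNNGC, which can overlap it, in 4 (5.71%) against 12.4%. AGGTCA was found in 17.1% against 16.3%, the aryl hydrocarbon receptor core GCGTG in 18.6% against 32.4%, and the HNF4 site CAAAGTCCA in 1.43% against 0.475%. GCGTG also lay, unmarked, in the printed stretches of Gstp1 and Sult1d1. Of the 14 windows with GTTAAT, those of Sult2a3, Sult2a4, Sult2a5, Sult2a6 and Sult3a2 belonged to genes without a read in any library.

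Levels of different genes were compared as FPKM, which the authors scaled to transcript length and depth. Averaged over the 6 libraries, 15 members had at least 100 FPKM, 14 had 10 to under 100, 16 had 1 to under 10, and 21 had under 1. Mgst1, the microsomal enzyme that also reduces lipid peroxides, had the highest level of all members, at 2835 ± 186 FPKM (SD, n = 6). It was followed by Gstp1 with 761 ± 468 FPKM, Gsta3 with 612 ± 105 FPKM and the sulfotransferase Sult2a8 with 458 ± 52.8 FPKM. The spread of Gstp1 reached over the levels of Gsta3, Sult2a8, Ugt2b5 and Gstz1, so its place in this order is not fixed, whereas Mgst1 lay above every other member in every library. Next came Ugt2b5 with 347 ± 29.4 FPKM, Gstz1 with 322 ± 24.9 FPKM and Ugt2b36 with 273 ± 45.6 FPKM, and over the libraries Gstz1 overlapped with both Ugt2b5 and Ugt2b36.

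**Figure D1:**
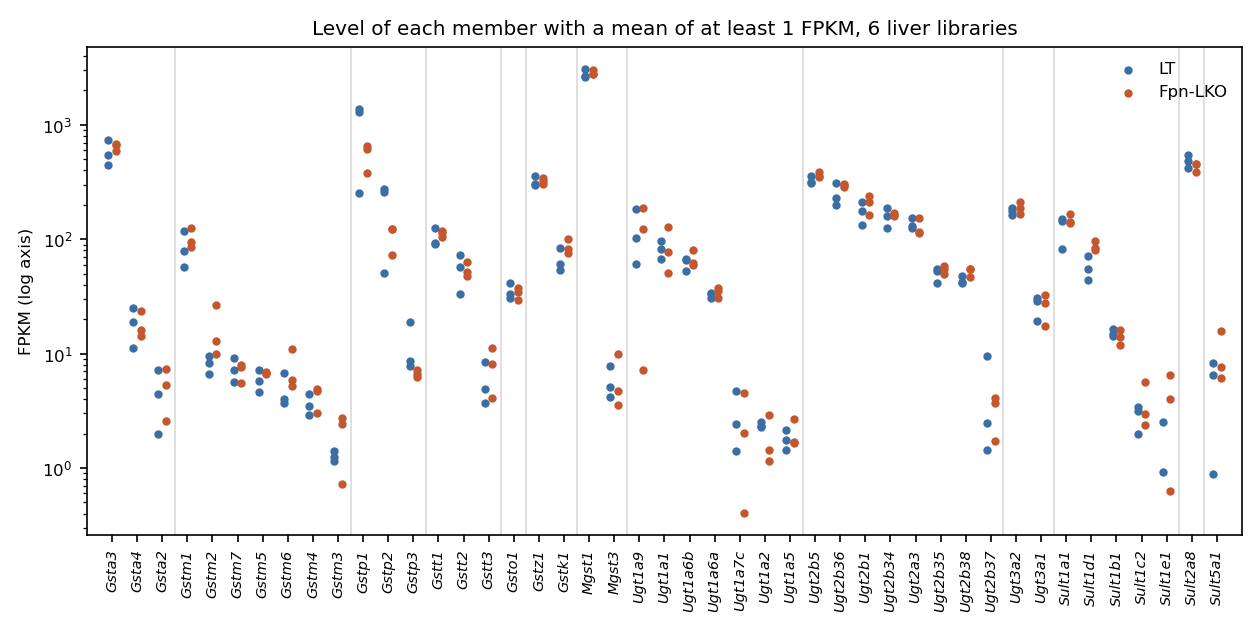
Level of each member with a mean of at least 1 FPKM, on a logarithmic axis, with 1 point per library (blue, LT; orange, Fpn-LKO) and grey lines between families. Mgst1 lies highest, the points of the 2 genotypes lie over each other for most members, and Gstp1, Gstp2, Ugt1a9 and Sult5a1 spread widely within a genotype.

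Of the 66 members, 14 had no read in any library, among them Sult2b1, Sult4a1, Sult1c1, Mgst2 and the sulfotransferase genes Sult2a2 to Sult2a6. At these depths a count of 0 allows up to 3 reads, or 0.0628 to 0.0696 CPM (reads of a gene scaled to the same library size for all libraries). Ugt2a1, Sult2a1 and Sult3a1 had reads in too few libraries to be tested, with at most 34 reads in 1 library. The remaining 49 members, with 0 reads in at most 1 library, were tested. Together the members took between 1.20% and 1.33% of all counts, and their summed CPM was 12760, 11933 and 12792 in LT 1 to 3 and 12530, 12455 and 12819 in Fpn-LKO 1 to 3. The groups overlapped in this sum.

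Each library held between 43086184 and 47778683 counts, so counting limited only the lowest members. Libraries of a genotype differed from each other by more than sampling noise. Slc40a1, the floxed ferroportin gene, averaged 153 ± 27.0 CPM in LT and 154 ± 18.7 CPM in Fpn-LKO (SD, n = 3), with an adjusted p of 0.995 by edgeR. Its count thus did not tell the genotypes apart, and every direction below rests on the labels. Hepatocyte markers summed to between 87700 and 102853 CPM over the 6 libraries and overlapped between the groups. The small cytoplasmic and nucleolar RNAs Rn7s, Rmrp and Rpph1 took 7.65% to 8.76% of counts in LT and 10.2%, 3.29% and 4.49% in Fpn-LKO 1 to 3, and the part of this difference in the values below was not tested. In whole liver, fewer cells of a type and less RNA per cell cannot be told apart.

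Each fold change sets the libraries labelled Fpn-LKO over LT. It comes from edgeR's quasi-likelihood test on the 17274 genes that passed the filter, with Benjamini-Hochberg adjustment over all of them. None of the 49 members passed an adjusted p of 0.05, against 0.0232% of all genes tested. None did so by DESeq2, by edgeR's exactTest or by limma on TPM either, and the smallest adjusted p of any member was 0.251, for Sult1d1 by DESeq2. At an unadjusted p under 0.05, 4 members were counted (8.16%), 3 higher and 1 lower, against 4.80% of all genes (2.62% higher and 2.19% lower). DESeq2 and exactTest also gave 4 each. Groups did not overlap for 3 members (6.12%), 2 higher and 1 lower, against 10.6% of all genes (5.25% higher and 5.34% lower). The smallest p-value an exact permutation test allows for 1 gene in 3 against 3 mice is 0.1.

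Most fold changes of members were small. The absolute log2 fold change was under 0.25 for 29 of the 49 and under 0.5 for 36, and reached 1 for 2 low-level members, Gsta1 and Sult1e1. It was above 0 for 34 members and below 0 for 15 (69.4% above 0, against 49.4% of all genes), with a median of 0.11 against −0.0040 over all genes. Members of a locus share reads, so they are not independent in this count. Standard errors lay between 0.117 and 1.22, with a median of 0.244.

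**Figure D2:**
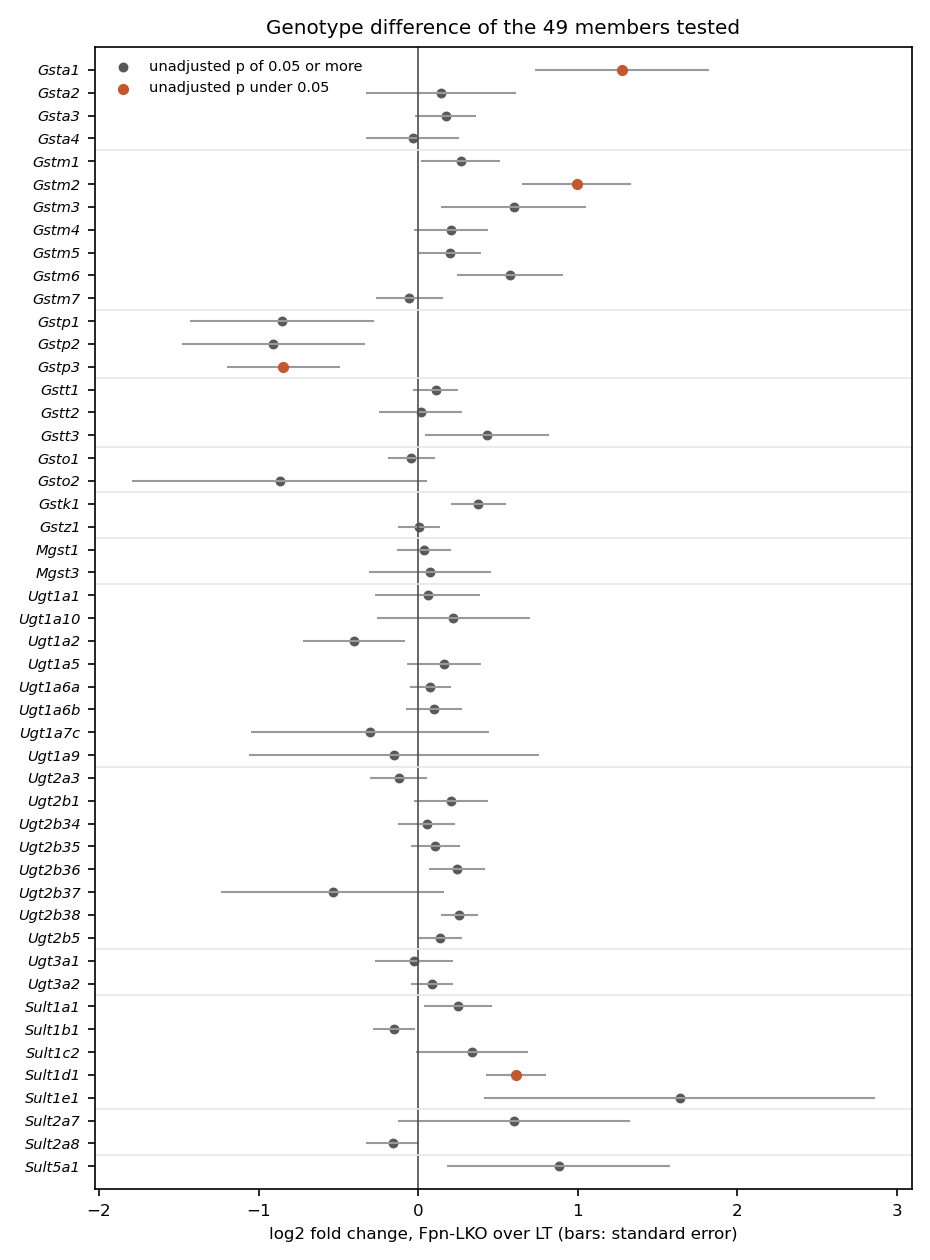
Log2 fold change (libraries labelled Fpn-LKO over LT) of the 49 members tested, in family order, with bars for the standard error and orange for an unadjusted p under 0.05. The bars of most members cross 0, the 3 pi class genes lie near −0.85, and Gsta1, Gstm2 and Sult1d1 lie above 0.

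Among the alpha class enzymes, which conjugate products of lipid peroxidation and bind bile pigments, Gsta3 supplied 96.3% of the summed FPKM. Gsta3 had 1156, 888 and 744 CPM in LT 1 to 3 and 1043, 967 and 1135 CPM in Fpn-LKO 1 to 3. The ranges overlapped, and the log2 fold change was 0.17 (standard error 0.19, 95% interval −0.28 to 0.62). Gsta1, a close relative that is strongly induced by antioxidants, had 0.422, 0.208 and 0.290 CPM in LT 1 to 3 and 1.19, 0.364 and 0.690 CPM in Fpn-LKO 1 to 3. Its log2 fold change was 1.28 (standard error 0.54, unadjusted p = 0.0491, adjusted p = 0.982, edgeR's quasi-likelihood test), at a level under 2 CPM and with groups that overlapped. Without Fpn-LKO 1 the log2 fold change of Gsta1 was 0.77, and its unadjusted p was above 0.05 when LT 2, LT 3, Fpn-LKO 1 or Fpn-LKO 3 was left out. The Gsta1 transcript is 99.5% identical to Gm3776 over 874 bases, and Gm3776 itself had a log2 fold change of 1.47 (standard error 0.68). Gm10639, Gm8074 and Gsta2 also hold stretches near-identical to Gsta1, and Gm10639 had a log2 fold change of 0.69 (standard error 0.64). The reads of these genes cannot be assigned with certainty. Gsta2 and Gsta4 had log2 fold changes of 0.14 and −0.03.

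The mu class holds 7 members in a cluster on chromosome 3, all of them tested, with 6 fold changes above 0. Gstm1, its most abundant enzyme in liver, made up 71.3% of the summed FPKM of the class. Gstm1 had 175, 118 and 90.7 CPM in LT 1 to 3 and 184, 143 and 134 CPM in Fpn-LKO 1 to 3. These groups overlapped, and the log2 fold change was 0.27 (standard error 0.25, 95% interval −0.31 to 0.84). Gstm2 lies at chr3:107981702-107986420 and had 11.2, 9.95 and 8.48 CPM in LT 1 to 3 and 31.6, 15.5 and 12.1 CPM in Fpn-LKO 1 to 3. Every library labelled Fpn-LKO lay above every LT library, with Fpn-LKO 1 far above the other two. It averaged 9.89 ± 1.38 CPM in LT and 19.7 ± 10.4 CPM in Fpn-LKO (SD, n = 3), a log2 fold change of 0.99 (standard error 0.34, unadjusted p = 0.0213, adjusted p = 0.982, range over the alternatives 0.278 to 1.00, edgeR's quasi-likelihood test). Without Fpn-LKO 1 the log2 fold change of Gstm2 was 0.48, so that library set much of its size.

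Gstm6 and Gstm3, which lie near Gstm2 in the cluster, had higher means in the libraries labelled Fpn-LKO, with overlapping groups. Gstm6 had 9.02, 5.43 and 5.29 CPM in LT 1 to 3 and 14.5, 6.94 and 8.06 CPM in Fpn-LKO 1 to 3, with a log2 fold change of 0.58 (standard error 0.33, 95% interval −0.20 to 1.36). Gstm3, an enzyme induced by NRF2 in mouse liver, had 1.97, 1.59 and 1.84 CPM in LT 1 to 3 and 3.75, 3.38 and 1.06 CPM in Fpn-LKO 1 to 3, with a log2 fold change of 0.60 (standard error 0.45, 95% interval −0.46 to 1.66). Fpn-LKO 1 was the highest library for Gstm1, Gstm2, Gstm3 and Gstm6. The transcripts of Gstm2 and Gstm6 share 368 bases at 90.2% identity, and Gstm1 shares 657 bases at 97.9% with the pseudogene Gstm2-ps1. The other mu class members, Gstm4, Gstm5 and Gstm7, had log2 fold changes of 0.21, 0.20 and −0.05.

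The pi class carried the widest spread of any abundant GST. Gstp1, the main pi class enzyme, which is known to be higher in male than in female mouse liver, had 214, 1117 and 1248 CPM in LT 1 to 3 and 321, 561 and 547 CPM in Fpn-LKO 1 to 3. LT 1 held the lowest value of all 6 libraries and LT 3 the highest, a 5.84-fold range, and all libraries labelled Fpn-LKO lay between them. It averaged 859 ± 563 CPM in LT and 477 ± 135 CPM in Fpn-LKO (SD, n = 3), and the log2 fold change was −0.85 (standard error 0.58, 95% interval −2.20 to 0.50). Without LT 1 the log2 fold change of Gstp1 was −1.31, with an unadjusted p under 0.05 and an adjusted p above the threshold. Gstp2 had 43.4, 227 and 255 CPM in LT 1 to 3 and 62.6, 108 and 109.8 CPM in Fpn-LKO 1 to 3, in the same order of libraries but for Fpn-LKO 2 and 3, which were close. Its log2 fold change was −0.91 (standard error 0.58, 95% interval −2.25 to 0.44).

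Gstp2 stood at 19.3% to 20.5% of the Gstp1 CPM in every library. The transcripts of Gstp1 and Gstp2 are 98.2% identical over 707 bases, so part of this fixed ratio can come from shared reads. Gstp3, which has no near-identical copy, had 7.51, 7.04 and 17.6 CPM in LT 1 to 3 and 6.39, 5.42 and 6.08 CPM in Fpn-LKO 1 to 3. All libraries labelled Fpn-LKO lay below the LT libraries, although LT 1 and LT 2 were close to them and LT 3 stood apart. It averaged 10.7 ± 5.96 CPM in LT and 5.96 ± 0.498 CPM in Fpn-LKO (SD, n = 3), a log2 fold change of −0.84 (standard error 0.35, unadjusted p = 0.0465, adjusted p = 0.982, range over the alternatives 0.669 to 1.00, edgeR's quasi-likelihood test). Without LT 3 the log2 fold change of Gstp3 was −0.29. Gstp3 did not follow Gstp1 over the libraries, at 0.63% to 3.52% of its CPM.

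**Figure D3:**
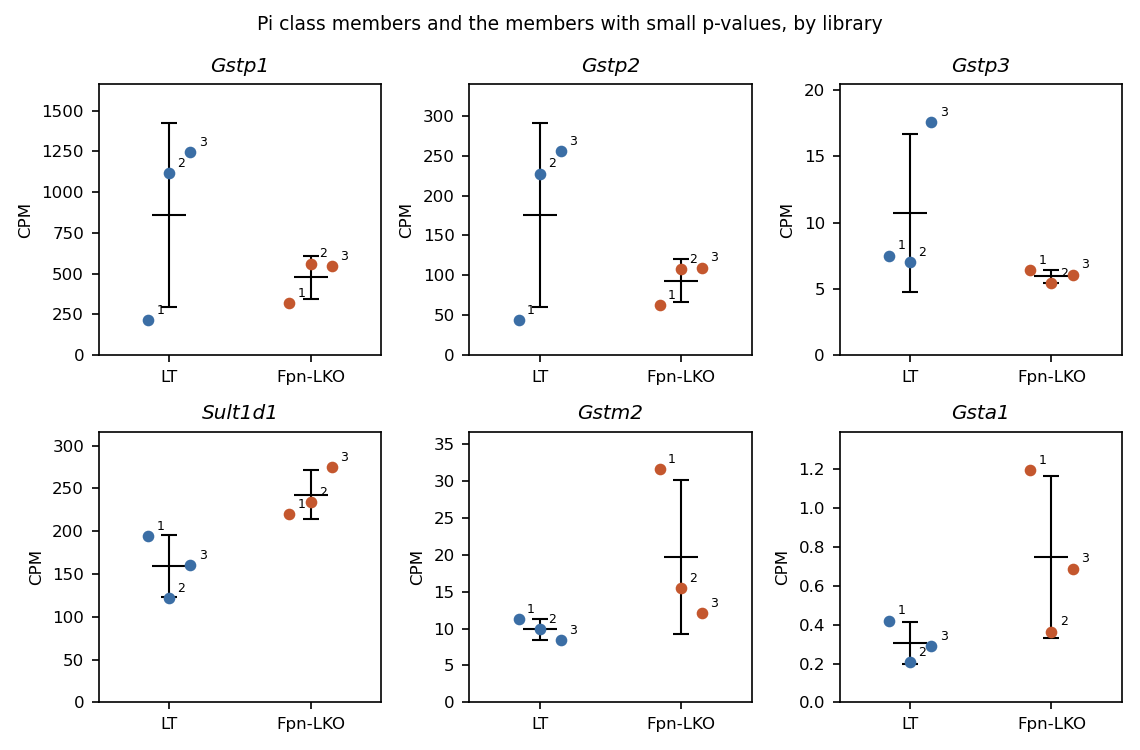
CPM of the 3 pi class genes and of Sult1d1, Gstm2 and Gsta1 in each library (points numbered by replicate), with the mean and SD of 3 libraries per genotype. Sult1d1 separates the genotypes, Gstm2 and Gstp3 do so by a small margin, and LT 1 lies far below LT 2 and LT 3 for Gstp1 and Gstp2.

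Genes known to be higher in male liver were set beside the pi class. The 14 such genes that are not transferases summed to 12336, 20523 and 37584 CPM in LT 1 to 3 and to 8288, 23250 and 27233 CPM in Fpn-LKO 1 to 3, of which the urinary protein gene Mup7 made up 49.2%. The 16 genes known to be higher in female liver summed to 329.7, 129 and 77.9 CPM in LT 1 to 3 and to 261, 201 and 115 CPM in Fpn-LKO 1 to 3. LT 1 and Fpn-LKO 1 thus had the lowest male-biased sum, the highest female-biased sum and the lowest Gstp1 of their genotype. In LT this order of the male-biased sum rested on Mup7, which had 1545, 11712 and 17340 CPM in LT 1 to 3. Without Mup7, the male-biased sum was lowest in LT 2 and in Fpn-LKO 1. All mice were male by the labels, both sums overlapped between the genotypes, and the part of this axis in the Gstp1 values was not tested.

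The theta, omega, kappa and zeta enzymes tested overlapped between the groups. Gstt1, the theta class enzyme that acts on small halogenated compounds, had 150.2, 111 and 118 CPM in LT 1 to 3 and 141, 137 and 131 CPM in Fpn-LKO 1 to 3, with a log2 fold change of 0.11 (standard error 0.14, 95% interval −0.21 to 0.43). Gsto1, an omega enzyme that reduces glutathione adducts, had 44.4, 56.1 and 44.0 CPM in LT 1 to 3 and 39.9, 51.6 and 48.8 CPM in Fpn-LKO 1 to 3, with a log2 fold change of −0.043 (standard error 0.15, 95% interval −0.39 to 0.30). Gstz1, which acts in tyrosine breakdown as maleylacetoacetate isomerase, had 663, 568 and 587 CPM in LT 1 to 3 and 633, 606 and 587 CPM in Fpn-LKO 1 to 3. Its libraries lay within a 1.17-fold range, and the log2 fold change of Gstz1 was 0.0055 (standard error 0.13, 95% interval −0.30 to 0.31). Gstk1, the kappa enzyme of mitochondria and peroxisomes, had 88.9, 65.0 and 61.1 CPM in LT 1 to 3 and 107, 87.8 and 84.2 CPM in Fpn-LKO 1 to 3. LT 1 reached into the range of the libraries labelled Fpn-LKO, and the log2 fold change was 0.38 (standard error 0.17, 95% interval −0.027 to 0.78).

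Mgst1 had 3365, 2907 and 3135 CPM in LT 1 to 3 and 3328, 3122 and 3211 CPM in Fpn-LKO 1 to 3. Its groups overlapped within a 1.16-fold range, and its log2 fold change was 0.038 (standard error 0.17, 95% interval −0.35 to 0.43). Mgst3, at a far lower level, had a log2 fold change of 0.07.

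Ugt1a9 varied far more between mice than the sum over the Ugt1 locus did. Exons 2 to 4 of Ugt1a1 (chr1:88215044-88215175, chr1:88215795-88215882 and chr1:88216138-88216357) are exons of all 8 Ugt1a members in the GENCODE annotation. The last exons of all 8 overlap, so reads over these exons do not tell the genes apart. GENCODE also lists Ugt1a8, which is not among the members and is 93.3% identical to Ugt1a9 over 2201 bases. In its longest GENCODE transcript, Ugt1a7c also shares its first exon with Ugt1a6b and its second exon with Ugt1a6a. The RefSeq gene Ugt1a7c, to which the counts refer, begins upstream of that first exon, at chr1:88095001. Ugt1a9 had 677, 385 and 241 CPM in LT 1 to 3 and 684, 462 and 27.3 CPM in Fpn-LKO 1 to 3. This was a 25.1-fold range, with Fpn-LKO 3 far below every other library, and the log2 fold change was −0.15 (standard error 0.91, 95% interval −2.27 to 1.97). Ugt1a1, the enzyme that conjugates bilirubin, had 303, 363 and 265 CPM in LT 1 to 3 and 285, 189 and 496 CPM in Fpn-LKO 1 to 3. Fpn-LKO 3 held the highest Ugt1a1 value and Fpn-LKO 2 the lowest, and the log2 fold change was 0.06 (standard error 0.33, 95% interval −0.70 to 0.82).

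Ugt1a9 thus took 53.2%, 35.8% and 28.2% of the Ugt1 counts in LT 1 to 3 and 52.4%, 48.7% and 3.02% in Fpn-LKO 1 to 3, while Ugt1a1 took from 19.9% to 54.8%. The sum over the 8 genes was 1271, 1075 and 854 CPM in LT 1 to 3 and 1305, 949 and 904 CPM in Fpn-LKO 1 to 3, a log2 ratio of means of −0.02. How the deposited counts split reads over the shared exons was not tested. Ugt1a7c was low in the same library, at 1.59 CPM in Fpn-LKO 3 against 5.75 to 17.8 CPM elsewhere. Ugt1a6a, which conjugates phenols, was steadier with 115, 126 and 137 CPM in LT 1 to 3 and 132, 118 and 148 CPM in Fpn-LKO 1 to 3, and a log2 fold change of 0.077 (standard error 0.13, 95% interval −0.22 to 0.38). Ugt1a2 had 9.24, 8.47 and 9.23 CPM in LT 1 to 3 and 10.6, 4.33 and 5.45 CPM in Fpn-LKO 1 to 3, with a log2 fold change of −0.40 (standard error 0.32, 95% interval −1.15 to 0.34).

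**Figure D4:**
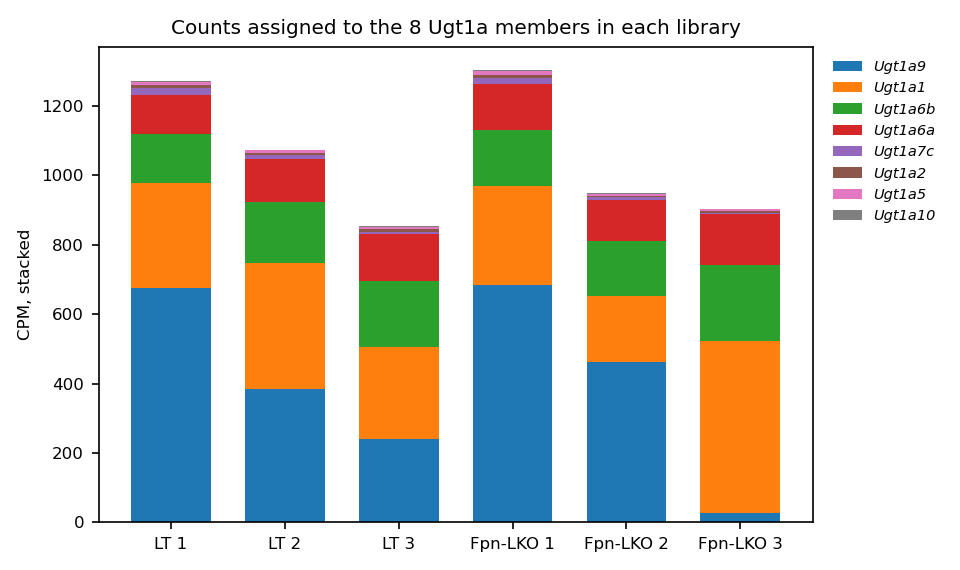
CPM assigned to the 8 Ugt1a members, stacked, in each library. Ugt1a9 (blue) shrinks to 27.3 CPM in Fpn-LKO 3, where Ugt1a1 (orange) is largest, while the height of the whole bar stays between 854 and 1305 CPM.

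The Ugt2 family, which conjugates steroids, fatty acids and drugs, overlapped between the groups at 3009, 2663 and 3383 summed CPM in LT 1 to 3 and 3035, 3416 and 3444 in Fpn-LKO 1 to 3. Ugt2b5, its most abundant member per length, had 779, 678 and 740.3 CPM in LT 1 to 3 and 751, 784 and 879 CPM in Fpn-LKO 1 to 3, with a log2 fold change of 0.14 (standard error 0.14, 95% interval −0.19 to 0.46). Ugt2b36 had 676, 439.6 and 536 CPM in LT 1 to 3 and 660.4, 623 and 672 CPM in Fpn-LKO 1 to 3, with a log2 fold change of 0.24 (standard error 0.18, 95% interval −0.17 to 0.66). Ugt2b1 had 391, 524 and 662 CPM in LT 1 to 3 and 472, 705 and 643 CPM in Fpn-LKO 1 to 3, with a log2 fold change of 0.21 (standard error 0.23, 95% interval −0.34 to 0.75). LT 2 held the lowest value of both Ugt2b5 and Ugt2b36, and LT 1 that of Ugt2b1.

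Ugt2b38, which is known to be higher in male liver, had 102, 92.4 and 95.8 CPM in LT 1 to 3 and 102, 122 and 124 CPM in Fpn-LKO 1 to 3. LT 1 and Fpn-LKO 1 lay within 1 CPM of each other, and the other libraries labelled Fpn-LKO lay above all LT libraries, a log2 fold change of 0.26 (standard error 0.12, 95% interval −0.015 to 0.53). Ugt2b5 is at least 90% identical over 100 or more bases to Ugt2b36, Ugt2b37 and Ugt2b38, and to Ugt2b37 at 93.2% over its whole length, so their counts can share reads. The remaining Ugt2 members tested (Ugt2a3, Ugt2b34, Ugt2b35 and Ugt2b37) had log2 fold changes from −0.54 to 0.11, of which the lowest, that of Ugt2b37, was 0.73 without LT 3. Ugt3a2, which uses other sugar donors, had 468, 449 and 439 CPM in LT 1 to 3 and 529.6, 427 and 486 CPM in Fpn-LKO 1 to 3, with a log2 fold change of 0.088 (standard error 0.13, 95% interval −0.22 to 0.39).

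Sult1 was the only one of the 13 families whose summed CPM did not overlap between the groups, where 10.6% of single genes did not. It stood at 471, 382 and 345 CPM in LT 1 to 3 and 518, 507 and 532 CPM in Fpn-LKO 1 to 3 (means 399 ± 64.5 and 519 ± 12.9 CPM, SD, n = 3 each), a log2 ratio of 0.38. Most of this came from Sult1d1, and without it the sums of the groups overlapped. Sult1d1, a sulfotransferase of catecholamines and eicosanoids at chr5:87554650-87569006, had 194, 122 and 160.0 CPM in LT 1 to 3 and 220.1, 234 and 275 CPM in Fpn-LKO 1 to 3. All libraries labelled Fpn-LKO lay above the highest LT library, LT 1. It averaged 159 ± 36.2 CPM in LT and 243 ± 28.4 CPM in Fpn-LKO (SD, n = 3), a log2 fold change of 0.61 (standard error 0.19, unadjusted p = 0.0122, adjusted p = 0.982, range over the alternatives 0.251 to 1.00, edgeR's quasi-likelihood test). Sult1d1 was the member with the smallest p-value, kept an unadjusted p under 0.05 in each of the 15 alternative fits, and has no near-identical copy in the annotation.

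Sult1a1, the phenol sulfotransferase and the family's most abundant member per length, had 221, 214 and 129 CPM in LT 1 to 3 and 247, 210.4 and 212 CPM in Fpn-LKO 1 to 3. Only LT 3 fell outside the range of 210 to 247 CPM, and the log2 fold change of Sult1a1 was 0.25 (standard error 0.21, 95% interval −0.25 to 0.74). Sult1e1, the estrogen sulfotransferase, which is low in male mouse liver and known to be induced in diabetic mice, had 1.35, 0 and 3.94 CPM in LT 1 to 3 and 0.922, 9.53 and 5.97 CPM in Fpn-LKO 1 to 3. It varied more within each genotype than between them, with LT 2 at 0 reads, and its log2 fold change was 1.64 (standard error 1.22, 95% interval −1.22 to 4.50). Without Fpn-LKO 2 the log2 fold change of Sult1e1 was 0.97, and without LT 3 it was 3.00. Sult1b1 and Sult1c2 had log2 fold changes of −0.15 and 0.34, and that of Sult1c2 was −0.088 without Fpn-LKO 1.

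Sult2a8, a bile acid sulfotransferase of mouse liver and almost the whole of the Sult2 signal (99.8% of FPKM), had 1325, 1038 and 1278 CPM in LT 1 to 3 and 958, 1137 and 1165 CPM in Fpn-LKO 1 to 3. Fpn-LKO 1 lay below all other libraries, the rest overlapped, and the log2 fold change was −0.16 (standard error 0.17, 95% interval −0.55 to 0.23). Sult5a1 had 1.31, 9.10 and 12.0 CPM in LT 1 to 3 and 8.68, 10.5 and 22.0 CPM in Fpn-LKO 1 to 3. LT 1 was far below the others and Fpn-LKO 3 far above, a 16.8-fold range, and the log2 fold change was 0.88 (standard error 0.70, 95% interval −0.76 to 2.52). Part of the long Sult5a1 transcript matches repeats in other genes, over at most 296 bases.

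**Figure D5:**
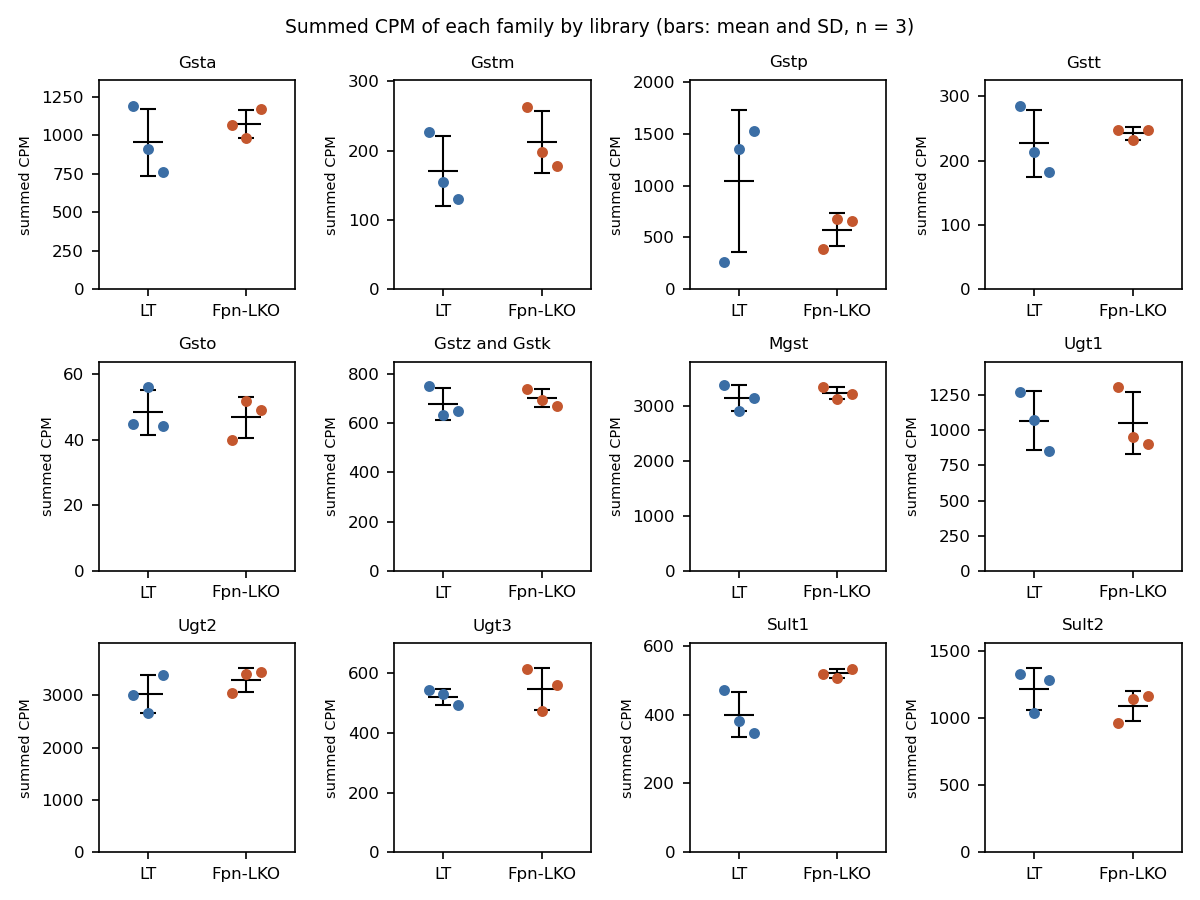
Summed CPM of 12 of the 13 families in each library (blue, LT; orange, Fpn-LKO), with the mean and SD of 3 libraries per genotype and axes that begin at 0. Sult3 to Sult6, in which Sult5a1 alone was tested, is left out. Sult1 is the only panel whose groups do not overlap, mostly through Sult1d1, and the Gstp panel has the widest LT spread, from 265 to 1521 CPM.

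The cofactor steps were examined with lists written for each pathway, none of whose genes are transferases of the families above. For UDP-glucuronate supply and glucuronide cleavage, 12 genes were tested, of which none passed the adjusted threshold. At an unadjusted p under 0.05, 2 were higher and none lower, against 2.62% and 2.19% of all genes. Both of these make the donor. Ugdh, the dehydrogenase that yields UDP-glucuronate, had 77.9, 58.9 and 46.8 CPM in LT 1 to 3 and 113, 91.9 and 101 CPM in Fpn-LKO 1 to 3. The groups did not overlap, and its log2 fold change was 0.74 (standard error 0.19, unadjusted p = 0.00552, adjusted p = 0.823, range over the alternatives 0.0994 to 1.00, edgeR's quasi-likelihood test). Ugp2, which makes UDP-glucose, had 352, 281 and 258 CPM in LT 1 to 3 and 547, 396 and 356 CPM in Fpn-LKO 1 to 3. Its groups were separate by a narrow margin, at a log2 fold change of 0.54 (standard error 0.20, unadjusted p = 0.0287, adjusted p = 0.982, range over the alternatives 0.548 to 1.00). The groups did not overlap for Slc35a1 and Slc35d2 either, nucleotide sugar transporters that were lower in the libraries labelled Fpn-LKO at log2 fold changes of −0.096 and −0.26 (unadjusted p = 0.364 and 0.0753 by edgeR). In this list 2 genes thus lay higher without overlap and 2 lower, where 5.25% and 5.34% of all genes did so. The median of the list was 0.04, against −0.0040 over all genes.

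Of the 18 genes tested for glutathione supply and use, none had an unadjusted p under 0.05, and the median log2 fold change was 0.10. Gclc, the catalytic subunit of the enzyme that limits glutathione synthesis, had 192, 159.6 and 111 CPM in LT 1 to 3 and 269, 134 and 168 CPM in Fpn-LKO 1 to 3, with a log2 fold change of 0.30 (standard error 0.29). Gclm, its modifier subunit, had 75.3, 79.0 and 90.6 CPM in LT 1 to 3 and 82.9, 75.7 and 71.7 CPM in Fpn-LKO 1 to 3, with a log2 fold change of −0.09 (standard error 0.12). The sum over the list was 3113 to 3448 CPM in LT and 3635 to 4021 CPM in Fpn-LKO, without overlap. The peroxidase gene Gpx1 made up 56.2% of this sum, and without Gpx1 the groups overlapped. Of 14 genes for PAPS and sulfate supply and for sulfate ester cleavage, none had an unadjusted p under 0.05. The PAPS synthases Papss1 and Papss2 had log2 fold changes of 0.33 and 0.04, and Papss2 stood at 93.8 to 118 CPM in LT and 86.1 to 128 CPM in Fpn-LKO.

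Among 25 receptors and factors known to control these genes, 2 were higher at an unadjusted p under 0.05 and none lower, beside the 2.62% and 2.19% of all genes. These were Hnf4a, with 239, 250.2 and 265 CPM in LT 1 to 3 and 310.3, 344 and 286 CPM in Fpn-LKO 1 to 3 (log2 fold change 0.32, standard error 0.12), and Foxa1, with 4.98, 5.36 and 3.84 CPM in LT 1 to 3 and 6.08, 9.68 and 5.80 CPM in Fpn-LKO 1 to 3 (log2 fold change 0.60, standard error 0.25), both with an adjusted p of 0.982. Nfe2l2, which encodes NRF2, had 46.5, 37.8 and 30.0 CPM in LT 1 to 3 and 38.2, 32.1 and 36.1 CPM in Fpn-LKO 1 to 3, a log2 fold change of −0.10 (standard error 0.17). Nr1i2, which encodes PXR, and Nr1i3, which encodes CAR, had log2 fold changes of −0.07 and −0.18, and Nr1i3 ranged from 199.9 to 456 CPM within LT. Of 17 reporter genes of NRF2, the aryl hydrocarbon receptor, CAR and PXR, 2 were higher, namely Cyp1a1, at under 1 CPM (log2 fold change 1.13), and Cyp3a13 (0.43). Among transporters of conjugates, the organic anion carrier Slco1a1 was lower, at 976, 1072 and 871 CPM in LT against 494, 779.8 and 727 CPM in Fpn-LKO (log2 fold change −0.54, standard error 0.20). Cyp1a1, Cyp3a13 and Slco1a1 each had an adjusted p of at least 0.922 by edgeR.

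Of 18 other conjugating enzymes, 1 passed the adjusted threshold. This was Nnmt, the nicotinamide N-methyltransferase, with 4.16, 2.63 and 4.04 CPM in LT 1 to 3 and 30.4, 50.6 and 46.3 CPM in Fpn-LKO 1 to 3, a difference of 3.55 on the log2 scale (standard error 0.26, edgeR's adjusted p = 0.00899, range over the alternatives 1.96e-37 to 0.223). The sum over this list of other enzymes was 2297 to 2791 CPM in LT and 2823 to 3065 CPM in Fpn-LKO, without overlap. Without Nnmt the groups overlapped in this sum, and 10.6% of single genes did not overlap. The largest absolute log2 fold change of a GST, UGT or SULT was 1.64, for Sult1e1. For hepatocyte zonation, 1 of 18 pericentral genes (Slc13a3) and 4 of 18 periportal genes (Ass1, Ctsc, Gls2 and Sds) were higher at an unadjusted p under 0.05 and none lower, where the shares of all genes were 2.62% and 2.19%. None of these 5 passed the adjusted threshold, and Ass1 and Sds overlapped between the groups. Of the 15 male-biased genes tested, which include Gstp1 and Ugt2b38, 2 were higher (Cyp4a12a and Elovl3) and 1 lower (Slco1a1), and of 10 female-biased genes tested, none reached that p in either direction.

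Markers of other cell types were low beside those of hepatocytes. The summed CPM of the lists was 275 to 614 for macrophages, 396 to 476 for stellate cells and fibroblasts, 14.7 to 86.0 for cholangiocytes and 0.73 to 5.66 for lymphocytes over the 6 libraries. It was 1044 to 1731 for the adipocyte list, 362 to 1259.5 for red blood cells and 1.35 to 2.67 for neutrophils. No read was found for 3 of 10 neutrophil markers (Camp, Ly6g and Mpo), 4 of 10 adipocyte markers (Adipoq, Lep, Plin1 and Retn) and 8 of 10 markers of exocrine pancreas. Endothelial markers were the only one of 11 lists without overlap, at 347 to 422 CPM in LT and 328 to 346 CPM in Fpn-LKO. The margin was under 1 CPM, and 10.6% of single genes did not overlap. Of the 10 endothelial genes, 1 was higher and none lower at an unadjusted p under 0.05, against 2.62% and 2.19% of all genes. LT 3, the library with the highest Gstp3 value, also had the highest cholangiocyte sum, and the part of other cells in these values was not tested.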

How the data were processed

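RNA-seq libraries from the livers of 6 HFD-fed mice, 3 of each genotype, were grouped and numbered by the sample labels. The study's methods give 0.5 µg of total RNA per library, an integrity number above 7 and paired reads of 100 bases. They name a stranded total RNA kit with removal of ribosomal RNA, whereas the labels give 1 µg and a stranded mRNA kit. Which kit was used was not tested. The authors aligned reads to mm10 and deposited a read count per RefSeq gene from StringTie, not normalized, together with FPKM, which is scaled for length and depth, and TPM, whose sum is equal in all libraries. The submitters' processing notes name HISAT2 2.1.0, Bowtie2 2.3.4.1 and StringTie 2.1.3b. StringTie divides reads among overlapping transcripts, so the counts of close paralogs and of the Ugt1a genes can share reads.

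The deposited counts entered edgeR 4.0.16 under R 4.3.3 without rounding or correction (TMM scaling, the quasi-likelihood test in its non-robust form, and the 17274 genes with 0 reads in at most 1 library). CPM are counts over the TMM-scaled library size. The 95% intervals use the t distribution with the fit's degrees of freedom, and standard errors come from its F statistic. Adjustment over all genes tested followed Benjamini and Hochberg, with a threshold of 0.05. The study's methods name exactTest, which was an alternative, beside DESeq2 1.42.0, RLE size factors, a replicate block, either filterByExpr or no filter but 1 read, and leaving out each mouse. Limma 3.58.1 was run on log2 of TPM, with a pseudocount of 1 or 0.1 and a minimum mean TPM of 1, and with a pseudocount of 1 and no minimum. The tests were tried on simulated data. The members and lists were chosen with earlier results of these data known. Members named with values in every library were those past the adjusted threshold by edgeR or DESeq2, the 15 with the smallest p, the most abundant of each family by FPKM, and 10 fixed genes, and genes of other lists were named at an unadjusted p under 0.05 or as a cofactor step. Other members named with a fold change or a single value, the Gsta1 copies Gm3776 and Gm10639, Gpx1 and Mup7 were chosen after their values were seen. Near-identical transcripts were searched with BLAST 2.17.0 in GENCODE transcripts (at least 90% identity over 100 bases), and 40 of 66 members had one. Promoter windows and gene coordinates are from RefSeq on GRCm38.p6, and exons of the Ugt1 locus from GENCODE M21 on GRCm38. Protein sequences are not used here. Part of the transporter list is not reported here.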

Additional observations from a re-analysis of the deposited data

How the results depend on the processing

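No member passed the adjusted threshold under any of the 15 alternative fits. The number with an unadjusted p under 0.05 (4) was 2 with limma on log2(TPM + 1), 2 on log2(TPM + 0.1) and 1 on log2(TPM + 1) without a filter, and ranged from 1 to 10 when a mouse was left out. It was 10 without LT 1, 2 without LT 2 and 1 without LT 3, and Sult1d1 was counted each time. Over all genes, the number past the adjusted threshold (4) was 72 by DESeq2, of which 49 were higher, 63 by exactTest, of which 44 were higher, 7 with limma on log2(TPM + 0.1), and 0 with the replicate block. It ranged from 0 to 6 when a mouse was left out (0 without LT 2, 1 without LT 1, LT 3 or Fpn-LKO 2). The fold change of 22 of the 49 members turned sign under at least 1 alternative, most of them small, but also Ugt2b37 (−0.54, range −0.97 to 0.73), Sult2a7 (0.60, −0.28 to 1.09), Sult1c2 (0.34, −0.088 to 0.56) and Ugt1a10 (0.22, −0.50 to 0.52). Gsto1 was at 0.050, 0.051 and 0.050 in the limma fits (log2 TPM + 1, + 0.1, and without a filter), in which the median of all genes was shifted to 0.083, 0.097 and 0.024. With a mouse left out, Gsto1 ranged from −0.12 to 0.087, Gstz1 from −0.034 to 0.075, Mgst1 from −0.0079 to 0.092, Ugt1a1 from −0.39 to 0.33, Ugt1a6a from −0.0051 to 0.16 and Ugt1a9 from −0.83 to 0.40. Among the sums of CPM, the log2 ratio of Gstz and Gstk (0.05) was 0.38 without Gstz1, that of Sult2 (−0.16) was 0.61 without Sult2a8, which leaves members near the limit of detection, and that of Mgst (0.04) was 0.12 as a sum of TPM. The cause of these shifts was not tested, apart from the omitted genes and mice themselves.

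Replicate numbers are shared between the genotypes, and the deviations of same-numbered libraries from their group means correlated at 0.238, 0.029 and 0.121. Each LT library correlated best with the Fpn-LKO library of its own number, whereas Fpn-LKO 2 correlated best with LT 3 (0.085). Whether the numbers pair the mice cannot be told from these values. The main fit did not pair the mice, and the replicate block was an alternative. With the replicate block, 6 members had an unadjusted p under 0.05 and none an adjusted one, and the log2 fold change of Ugt1a1 was −0.043. Depth limits the members with few reads, such as Gsta1, Gsto2 and Sult1e1, which had 0 reads in LT 2.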
